A study of Medicago sativa with 9 samples.

Results

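Long-span antisense and sense-overlapping lncRNAs of the alfalfa leaf (Medicago sativa, cultivar Kangsai) are spliced non-coding transcripts that overlap an annotated gene and whose ends lie at least 10000 bases apart on the genome. They were taken from the deposited lncRNA expression table as the rows with class code x or o and a span (end minus start plus 1) of 10000 bases or more. This gave 1697 of the 64684 listed transcripts, of which 604 carried class code x and 1093 class code o. All 1697 carried a strand and had at least 2 exons, and none had to be left out.

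Leaves of field-grown plants were profiled by sequencing of rRNA-depleted total RNA in 9 libraries, 3 each from the groups labelled CK, Low Se and High Se. Plants were assigned to a group at a height of 20 cm and sprayed 3 times at intervals of 7 days, with 100 mg/L in the low Se group and 500 mg/L in the high Se group. The series describes the agent as selenite, and what the CK group was sprayed with is not given. CK served as the control, and all 3 groups share the cultivar, the field and the spraying schedule. Whether the libraries within a group stem from different plants is not stated, and the p-values therefore reflect only how much these libraries vary, which may be technical. In leaf RNA of this kind, fewer cells that make a transcript and less of it per cell cannot be told apart.

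An antisense transcript is read from the strand opposite to a gene and shares exonic sequence with it in the complementary sense. In plants, antisense RNAs are known to act on their partner gene through transcriptional interference, chromatin marks or RNA duplexes, and a classical case is the set of COOLAIR transcripts at the FLC locus of Arabidopsis. A sense-overlapping transcript shares exonic sequence with a gene on the same strand without sharing its splice junctions. Class codes x and o were read here in these senses, which are those in general use for assembled transcripts. The annotation behind the host gene names is not used here, so no function is given for a host gene. Cultivated alfalfa is a tetraploid, and the table names 4 copies of each of 8 chromosomes, written 1.1 to 8.4.

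The span of these transcripts was almost entirely unspliced distance. Antisense members had a median span of 26858 bases (quartiles 14488 and 49706) and a median spliced length of 328.5 bases. Sense-overlapping members had a median span of 64280 bases (quartiles 32743 and 140708) and a median spliced length of 358 bases. The ratio of span to spliced length had a median of 78.9 in antisense members and 156.1 in sense-overlapping members. Summed over each class, exons made up 1.06% of the span of antisense members and 0.455% of that of sense-overlapping members. The classes thus differed in reach and hardly in the amount of RNA sequence per transcript. As members share loci and host genes, these are descriptions of the 2 lists without a test.

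**Figure D1:**
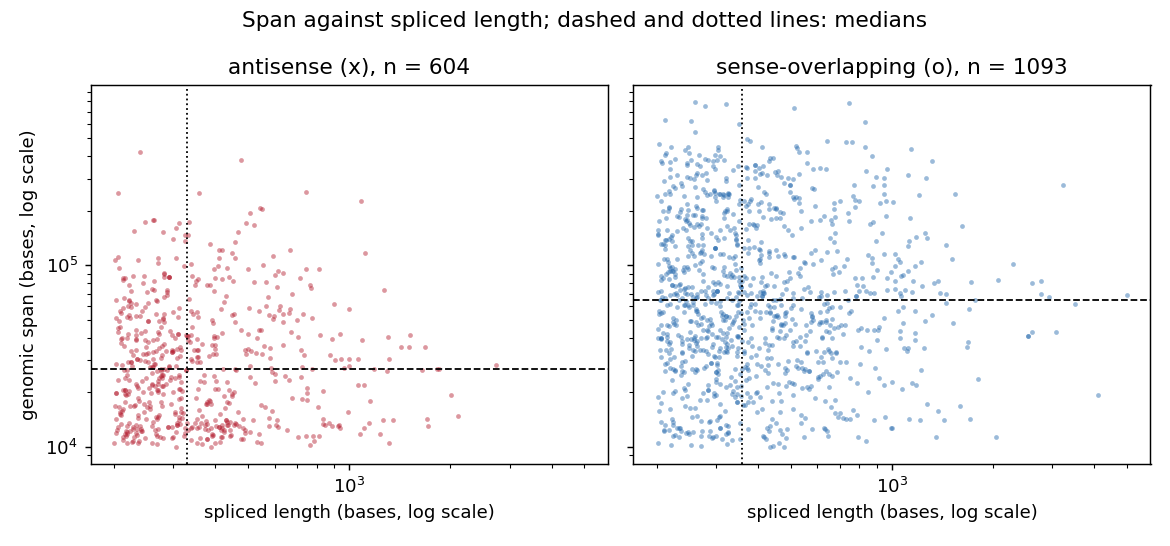
Genomic span (vertical, bases, log scale) against spliced length (horizontal, bases, log scale) of the 604 antisense and 1093 sense-overlapping members, 1 point per transcript. The dashed line is the median span, 26858 bases for antisense and 64280 for sense-overlapping members, and the dotted line is the median spliced length.

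Sense-overlapping members extended to far longer spans. Spans of 50000 bases or more were held by 150 antisense members (24.8%) and by 641 sense-overlapping members (58.6%). Spans of 200000 bases or more were held by 8 antisense members (1.32%) and by 187 sense-overlapping members (17.1%). Spans of 500000 bases or more occurred in 10 sense-overlapping members and in 0 antisense members. At the lower end, 224 antisense members (37.1%) and 144 sense-overlapping members (13.2%) spanned less than 20000 bases.

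Spliced length did not follow span in either class. The rank correlation of span with spliced length was 0.0034 over 604 antisense members and -0.037 over 1093 sense-overlapping members, where members of 1 locus share exons. Antisense members spanning 10000 to 20000 bases had a median spliced length of 353 bases, and those spanning 100000 to 200000 bases one of 333. In sense-overlapping members the same 2 ranges had medians of 353 and 341 bases. The 8 antisense members above 200000 bases had a median of 510.5 bases, a value that rests on few transcripts.

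**Figure D2:**
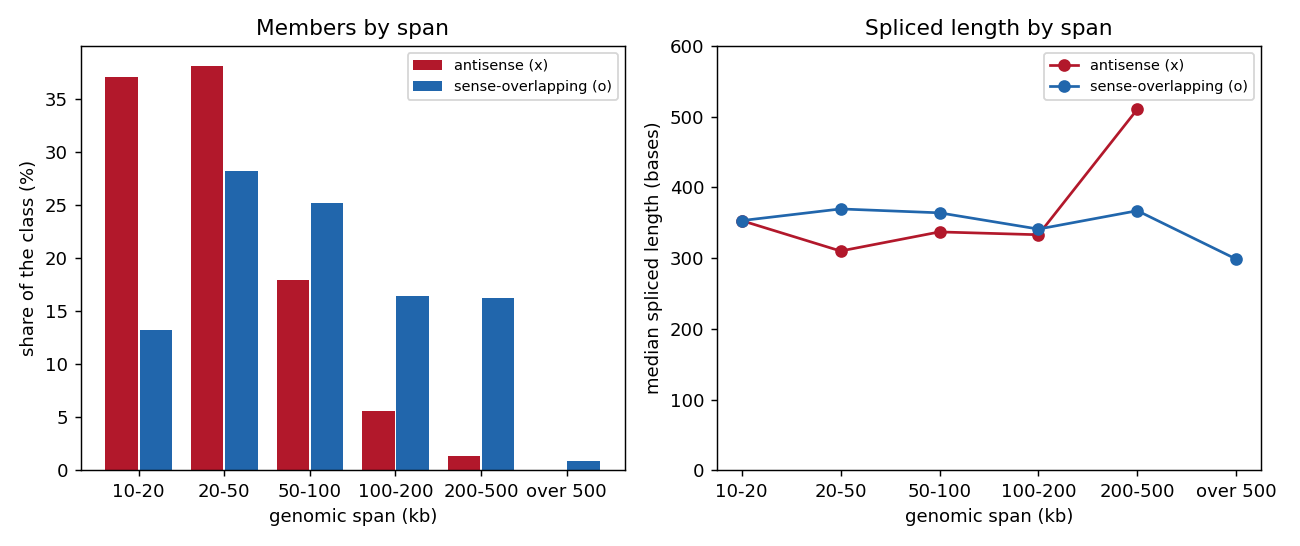
Left, share of each class (%) by genomic span in kb, with 604 antisense and 1093 sense-overlapping members. Right, median spliced length in bases in the same ranges of span. Antisense members lie mostly in the first 2 ranges (37.1% and 38.1%), and the spliced length stays between 310 and 369.5 bases in every range that holds more than 10 members.

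Most members consisted of 2 exons, so that 1 gap accounts for the whole distance. This held for 541 of the antisense members (89.6%) and 940 of the sense-overlapping members (86.0%). In these 2-exon transcripts the gap is the span minus the spliced length. Its median was 25400 bases in antisense and 60221 bases in sense-overlapping members, and its longest value was 420829 bases in antisense MSTRG.113262.1 and 495378 bases in sense-overlapping MSTRG.84916.1. The members with the most exons were sense-overlapping: MSTRG.112276.12 had 6, and 4 others, among them MSTRG.45318.1 and MSTRG.56840.1, had 5. Antisense members had at most 4 exons, as in MSTRG.117161.15, MSTRG.117161.9 and MSTRG.87270.1. Junctions were not checked, because reads are not used here.

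The 5 longest antisense members were MSTRG.113262.1 (421068 bases), MSTRG.108302.1 (378646), MSTRG.114698.4 (255125), MSTRG.51104.1 (250716) and MSTRG.51105.1 (250614). MSTRG.113262.1 joins 239 bases of exon across chromosome 6.3 from 5413830 to 5834897, plus strand, with host gene MS.gene20508. The 5 longest sense-overlapping members were MSTRG.114698.3 (791723 bases), MSTRG.45534.1 (786398), MSTRG.45534.6 (775711), MSTRG.56819.4 (750669) and MSTRG.45534.7 (737110). Each of these 5 had 3 exons and a spliced length between 259 and 744 bases. They lie on chromosomes 6.3, 3.1 and 3.3.

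Long spliced products were rare. A spliced length of at least 1000 bases was reached by 31 antisense members (5.13%) and 88 sense-overlapping members (8.05%). The longest were sense-overlapping MSTRG.152190.2 with 4998 bases, MSTRG.152198.3 with 4111 and MSTRG.147012.6 with 3505, all on chromosomes 8.2 and 8.3. Among antisense members MSTRG.124224.1 had 2729 bases, MSTRG.13718.1 had 2107 and MSTRG.109146.1 had 2011. MSTRG.124224.1 (chromosome 7.2, 5818314 to 5846458, plus strand) and MSTRG.109146.1 (chromosome 6.1, 80177643 to 80197045, minus strand) were above 0 in every library, at 2.01 to 6.30 and 4.51 to 18.96 FPKM (fragments scaled for transcript length and library size). MSTRG.13718.1 was above 0 in 2 libraries only, CK 1 and low Se 1.

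The limit of 10000 bases cut through a continuous range of spans. The shortest antisense members spanned 10004, 10008 and 10277 bases and the longest antisense transcripts below the limit 9938, 9893 and 9878 bases. For sense-overlapping transcripts the same values were 10014, 10054 and 10161 bases above the limit and 9956, 9785 and 9757 bases below it. Spans this long were common in the antisense and sense-overlapping classes and uncommon in the others. The junction-sharing class, which overlaps exons of genes as well, had them in 4.23%. They were found in 49.7% of antisense and 67.0% of sense-overlapping transcripts of the table, unspliced ones included. The share was 5.85% of the 10824 spliced transcripts of the intergenic, intronic and junction-sharing classes. An intronic transcript lies within an intron and an intergenic one between genes, so the contrast with these classes is partly set by definition.

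Beside span, other features differed less between long members and the compact transcripts of their class, of which 50 antisense and 5 sense-overlapping ones had 1 exon. Median spliced length was 328.5 bases in long against 312 in compact antisense transcripts, and 358 in long against 422 in compact sense-overlapping ones. The share with 2 exons was 89.6% in long against 83.6% in compact antisense transcripts, and 86.0% in long against 89.8% in compact sense-overlapping ones. The deposited CPC score of coding potential had a median of 0.0165 in long and 0.0173 in compact antisense transcripts, and of 0.0165 in long and 0.0286 in compact sense-overlapping ones. A lower CPC score means less predicted coding potential. No test was made across transcripts.

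Members were spread over all 32 chromosomes, with 1674 on chromosomes and 23 on 14 unplaced scaffolds. The share of listed transcripts that were members ranged from 1.34% on chromosome 2.2 (22 members) to 5.53% on chromosome 6.3 (107 members). Chromosome 3.1 held 113 members (5.11% of its listed transcripts) and chromosome 3.4 held 95 (4.40%), whereas the other 2 copies, 3.2 and 3.3, held 43 (2.19%) and 46 (2.15%). Homologous copies of a chromosome therefore differed in how many members they carried. Chromosome 5.2 had 36 sense-overlapping and 3 antisense members, and chromosome 6.3 had 54 sense-overlapping and 53 antisense members.

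The members came from 1369 loci and 1249 host genes. A locus held 1 member in 1189 cases, 2 in 125 and 3 or more in 55, and these 55 loci held 258 members (15.2%). Antisense and sense-overlapping members occurred together in 31 loci and shared a host gene in 32 cases. The richest loci were MSTRG.117161 on chromosome 6.4, with 15 antisense and 5 sense-overlapping members, MSTRG.45534 on chromosome 3.1, with 1 and 13, MSTRG.112276 on chromosome 6.2, with 1 and 11, and MSTRG.46210 on chromosome 3.1, with 2 and 8. Host gene MS.gene74294 on chromosome 3.1 was named for 18 members in 6 loci, all of them sense-overlapping.

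Forms of such a locus overlapped one another with mostly different ends. The 14 forms of MSTRG.45534 lie on the plus strand between 18686952 and 19473642, an extent of 786691 bases, with 12 starts and 11 ends. Their spliced lengths ran from 200 to 761 bases and their mean FPKM over the 9 libraries from 0.534 to 9.30. MSTRG.45534.12, MSTRG.45534.13 and MSTRG.45534.14 share their start at 19165470 and have 3 different ends. In all, 28 members of 9 loci overlap this extent, and all 28 are on the plus strand. Over all members, 210 (12.4%) shared an exact start or end on the same strand with another member. Genes present in near-identical copies can exchange reads, so the values of single forms at these loci are uncertain.

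**Figure D3:**
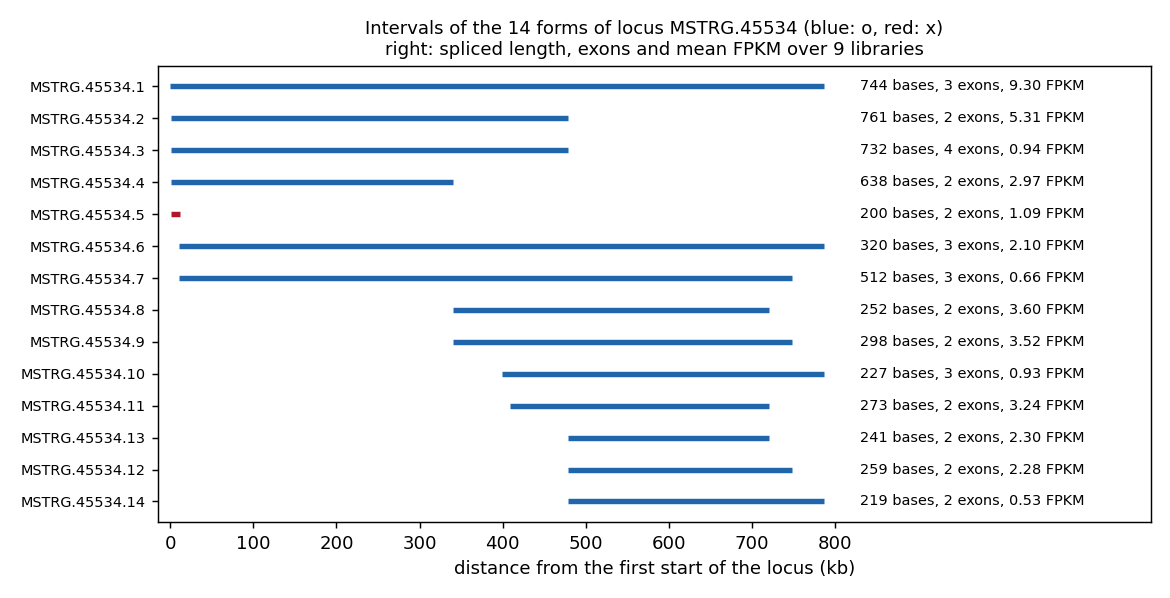
Intervals of the 14 listed forms of locus MSTRG.45534, drawn to scale as the distance in kb from the first start, blue for sense-overlapping and red for antisense, with spliced length, exons and mean FPKM written at the right. The 14 forms have 12 starts and 11 ends, and the 1 antisense form, MSTRG.45534.5, spans 10461 bases near the left end.

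Other listed lncRNAs lay within the span of a part of the members. At least 1 transcript of another locus lay wholly inside the span of 198 antisense members (32.8%) and 583 sense-overlapping members (53.3%). Per 100000 bases of span the number was 1.52 for antisense and 1.45 for sense-overlapping members, which is close between the classes. MSTRG.45534.1 enclosed the most, 17.

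Some members faced a partner with nearly the same ends on the other strand. A tolerance of 50 bases at each end gave 17 such pairs of members, made of 26 transcripts. In the 4 pairs of an antisense with a sense-overlapping member both partners named the same host gene. In the 13 pairs of 2 sense-overlapping members the partners named different host genes, which the class code requires of transcripts on opposite strands. No pair joined 2 antisense members. Several pairs combine forms of the same loci, as at MSTRG.120168 and MSTRG.120169, so the 13 are not independent. The pairs named here were chosen after their values were seen. MSTRG.100870.1 on the plus strand of chromosome 5.3 (71944179 to 72030542) faced MSTRG.100871.1 on the minus strand (71944180 to 72030533), with means of 34025 and 3144 FPKM. MSTRG.120168.1 and MSTRG.120169.1 on chromosome 7.1 had identical ends (14075909 and 14147860), with means of 373 and 88.6 FPKM. Whether the authors' quantification used strand is not given in the sources used here, so reads of such partners may not be separated. Of the listed transcripts 45959 carried no strand, and 0 of these were spliced. How strand was assigned to spliced transcripts was not tested, and the labels antisense and sense-overlapping rest on it.

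Most members were weakly covered. The median over members of the mean FPKM was 1.44 for antisense and 1.46 for sense-overlapping members, against 0.746 over all listed transcripts. It was 1.35 for compact antisense, 1.06 for compact sense-overlapping and 1.02 for all spliced transcripts. A mean of at least 100 FPKM was reached by 5 antisense and 20 sense-overlapping members, and 233 antisense and 395 sense-overlapping members stayed below 1 FPKM. With a read length of 141 bases, the median member had between 0.830 and 10.8 estimated reads in a library. Members above 0 in all 9 libraries numbered 113 of the antisense (18.7%) and 283 of the sense-overlapping members (25.9%), against 11.6% of all listed transcripts. Level hardly followed span, with a rank correlation of 0.037 over antisense and 0.099 over sense-overlapping members.

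Few members carried most of the signal. In the antisense class the 10 members with the highest means held 34.4% to 73.0% of the summed FPKM of a library, and in the sense-overlapping class 87.3% to 92.8%. The most abundant antisense member, MSTRG.18368.1 (chromosome 1.3, 25371268 to 25394052, minus strand, host gene MS.gene063219), spans 22785 bases with 317 bases of exon. It had 1003, 1724 and 2319 FPKM in CK, 1389, 1302 and 1997 in low Se, and 1475, 400.7 and 1140 in high Se. The groups overlapped, and the limma adjusted p for any difference was 0.662. Next came MSTRG.62573.2, MSTRG.73954.1, MSTRG.83230.1 and MSTRG.153314.2, with means from 412.8 to 124.0 FPKM.

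MSTRG.73954.1 and MSTRG.62573.2 show how steady and how erratic the listed value of an abundant member could be. MSTRG.73954.1, from 26848564 to 26860233 on the plus strand of chromosome 4.2, had 102, 130 and 156 FPKM in CK, 178, 117 and 66.7 in low Se, and 136, 200.2 and 164 in high Se. MSTRG.62573.2, from 48328049 to 48341201 on the minus strand of chromosome 3.4, had 701, 436 and 0 FPKM in CK, 1425, 3.84 and 14.3 in low Se, and 1125, 0 and 9.73 in high Se. The first stayed within 66.7 to 200.2 FPKM in all 9 libraries, while the second varied within every group. MSTRG.62573.1, a sense-overlapping member of the same locus, has the same start and strand as MSTRG.62573.2. It had 1528, 808 and 3000 FPKM in CK, 153, 773 and 1205 in low Se, and 1674, 3306 and 2502 in high Se. How reads were divided between these forms was not tested, so the values of MSTRG.62573.2 are not the level of the locus. Other antisense members with a high lowest value were MSTRG.146464.1, at 30.7 to 100.5 FPKM, and MSTRG.23620.1, at 23.2 to 73.1 FPKM.

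The most abundant sense-overlapping member was MSTRG.100870.1, whose host gene is MS.gene70851 and whose 86364 bases of span hold 350 bases of exon. It had 46571, 25986 and 18949 FPKM in CK, 34250, 38393 and 40662 in low Se, and 30725, 31564 and 39123 in high Se. This 1 transcript held 39.2% to 65.6% of the FPKM of its class. Groups overlapped and the limma adjusted p for any difference was 0.820. Its partner on the other strand, MSTRG.100871.1, was listed at 0 in CK 1 and had 1223 to 7209 FPKM in the other 8 libraries. That 0 belongs to this form and not to its locus. The intergenic MSTRG.100871.2, a form of the same locus and strand with the same end, had 10974 FPKM in CK 1. It also had 4426 FPKM in CK 2 and 4998 in low Se 3, and was listed at 0 elsewhere.

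Other abundant sense-overlapping members were MSTRG.91889.1, MSTRG.91972.3 and MSTRG.96593.1. MSTRG.91889.1, from 70662518 to 70691883 on the plus strand of chromosome 5.1, had 13937, 3931 and 183 FPKM in CK, 254, 5662 and 7324 in low Se, and 7133, 0.19 and 10378 in high Se. The level in single libraries thus ran from 0.19 to 13937 FPKM with no order by group. MSTRG.91972.3, from 71793729 to 71841658 on the minus strand of chromosome 5.1, had 1381 to 11869 FPKM in CK, 1111 to 3882 in low Se and 5450 to 7690 in high Se. It shares its start with MSTRG.91972.1, a compact antisense transcript of the same locus with 52472 to 93638 FPKM. MSTRG.42034.1 on chromosome 2.4 was among the sense-overlapping members with the highest lowest value, at 338 to 1433 FPKM over the 9 libraries.

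More members were above 0 in high Se libraries than in the others. Antisense members above 0 numbered 376, 357 and 309 in CK, 341, 376 and 312 in low Se, and 406, 429 and 408 in high Se. Sense-overlapping members above 0 numbered 751, 678 and 582 in CK, 696, 775 and 684 in low Se, and 777, 852 and 829 in high Se. In both classes each high Se library exceeded each CK and each low Se library. The listed transcripts as a whole showed 46.5 ± 6.53% above 0 in CK, 47.6 ± 4.14% at the low dose and 54.3 ± 2.77% at the high dose (mean ± SD of 3 libraries). The members, with 60.0 ± 7.01%, 62.5 ± 4.73% and 72.7 ± 2.89% in the same order, were in the same order as the whole table, and no test was made on them. Estimated aligned sequence was 1.44 to 2.78 gigabases in CK, 1.68 to 2.65 in low Se and 2.07 to 2.97 in high Se, and its part in these counts was not tested.

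**Figure D4:**
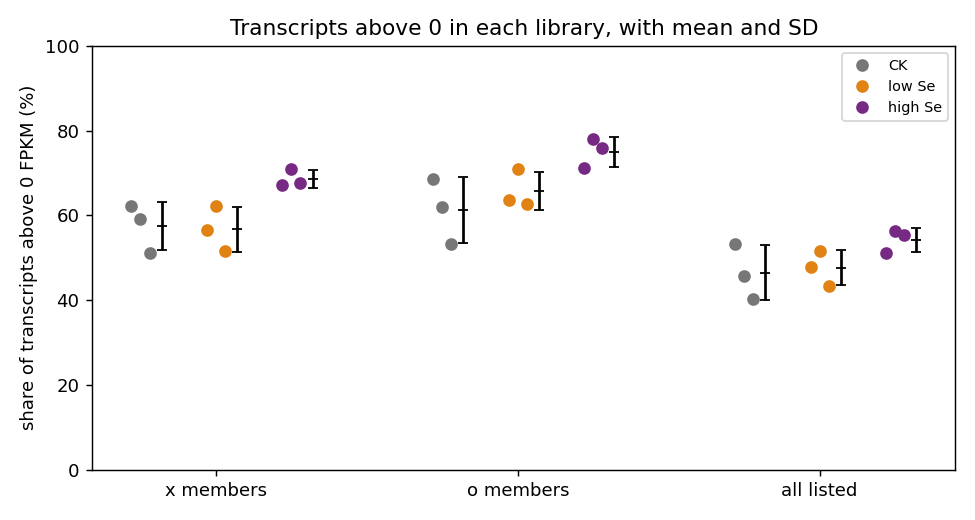
Share of transcripts above 0 FPKM (%) in each library, for antisense members, sense-overlapping members and all listed transcripts, with the mean and SD of the 3 libraries of a group beside the points. High Se libraries reach 67.2% to 71.0% for antisense and 71.1% to 78.0% for sense-overlapping members.

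The mean summed FPKM rose in the order CK, low Se, high Se in sense-overlapping members and fell in that order in antisense members. Antisense members summed to 4200 ± 480.2 FPKM in CK, 3933 ± 691.5 in low Se and 3663 ± 1045 in high Se (SD over 3 libraries). Sense-overlapping members summed to 56981 ± 13032 FPKM in CK, 62958 ± 3836 in low Se and 63835 ± 9751 in high Se. Each difference between 2 groups was smaller than the larger of their SDs.

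Changes with selenite were tested for the 1409 members that averaged 0.5 FPKM or more across the libraries, 492 antisense and 917 sense-overlapping, in 1 limma fit of all 43763 transcripts past that filter. A member that passed the filter through 1 group alone had to differ between groups, so counts over the 1409 describe them and not all members. Across the 3 pairwise comparisons and the test for any difference, 4 members passed at an adjusted p below 0.05. They were the antisense MSTRG.112200.1, MSTRG.40373.1 and MSTRG.7326.1 and the sense-overlapping MSTRG.136627.1. Each is the only listed form of its locus.

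**Figure D5:**
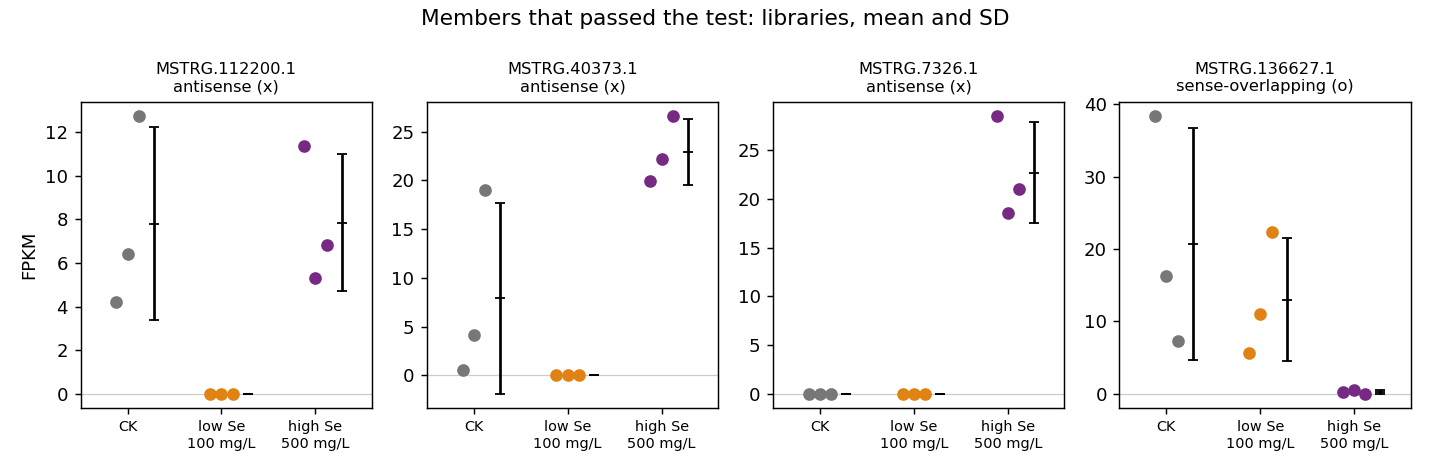
FPKM of the 4 members that passed the test, with the 3 libraries of CK, low Se and high Se as points and the mean and SD beside them. MSTRG.112200.1 and MSTRG.40373.1 are at 0 in all low Se libraries, MSTRG.7326.1 is above 0 in high Se libraries alone, and MSTRG.136627.1 is at most 0.476 FPKM in high Se.

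In low Se against CK leaves, 1 member passed and it fell, where 0.0274% of all tested transcripts passed in either direction, 0.016% fell and 0.0114% rose. MSTRG.112200.1 lies antisense to MS.gene05222 on chromosome 6.2 (77578082 to 77598851, plus strand) and joins 312 bases of exon across 20770 bases. It was listed at 0 in all 3 low Se libraries and had 4.23, 6.42 and 12.76 FPKM in the CK libraries, which do not overlap them (limma adjusted p = 0.0301). About 20.4 to 78.5 estimated reads stood behind each CK value. The call was lost in 7 of the 9 fits that leave out 1 library, all but those without CK 1 or low Se 1 (limma adjusted p from 0.0373 to 0.191 over the 9). It was also lost with a pseudocount of 1, without the variance trend and with the 6 libraries alone. No fold is given against a listing of 0.

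A second member at the same place was also at 0 in low Se but did not pass. The sense-overlapping MSTRG.112201.1 starts 3 bases further on and runs on the minus strand to 77614822, with host gene MS.gene05223. It too was listed at 0 in each low Se library and had 2.17, 2.35 and 6.77 FPKM in CK (limma adjusted p = 0.311). Since its interval covers nearly all of that of MSTRG.112200.1, the 2 values may not be independent.

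Of the members lower in low Se, the sense-overlapping MSTRG.43365.1 had the next smallest p (chromosome 2.4, 59769560 to 60113796, plus strand, host gene MS.gene003279). Its low Se values were all listed at 0, while it had 11.93, 9.12 and 15.6 FPKM in CK, with a limma adjusted p of 0.0748. MSTRG.114723.1, on chromosome 6.3 with a span of 433926 bases, was listed at 0 in low Se and had 5.47, 16.7 and 10.9 FPKM in CK (limma adjusted p = 0.113). Others by the same rule were MSTRG.40373.1, MSTRG.157824.1, MSTRG.114469.1, MSTRG.15795.1, MSTRG.23591.1 and MSTRG.14244.2, with limma adjusted p from 0.129 to 0.297. MSTRG.15795.1 stood out for its level: it had 955, 63.7 and 14.5 FPKM in low Se and 888, 1269 and 1506 in CK, so low Se 1 lay inside the range of CK.

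Among members higher in low Se, the antisense MSTRG.152445.1 (chromosome 8.3, 57036924 to 57132682, minus strand, host gene MS.gene88410) had the smallest p. It had 2.32, 20.99 and 12.6 FPKM in low Se and was listed at 0 in every CK library (limma adjusted p = 0.0637). Its counterpart on the plus strand, the sense-overlapping MSTRG.152446.1, begins at the same base and names the same host gene. It had 1.89, 14.4 and 13.6 FPKM in low Se and 0.0521, 0.0463 and 0.0239 in CK (limma adjusted p = 0.125). Both transcripts were low in low Se 1 and higher in the other 2 low Se libraries. A further antisense form of the locus of MSTRG.152445.1, MSTRG.152445.2, has the same strand and end. It had 0.791, 5.39 and 3.82 FPKM in low Se and 0, 0.897 and 0 in CK, so not every form was at 0 in CK.

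Further members higher in low Se did not pass either. The sense-overlapping MSTRG.46217.1, from 35736853 to 35760182 on the minus strand of chromosome 3.1, had 23.9, 16.3 and 19.7 FPKM in low Se and was listed at 0 in CK (limma adjusted p = 0.0748). The sense-overlapping MSTRG.114408.1 (chromosome 6.3, 29702547 to 29780181, plus strand, host gene MS.gene80424) was above 0 in every library. It had 15.5, 11.8 and 7.81 FPKM in low Se and 1.14, 0.515 and 1.35 in CK, a difference of 3.46 ± 0.73 (SE) on the log2(FPKM + 0.1) scale (limma adjusted p = 0.127). MSTRG.61952.2, MSTRG.93877.1, MSTRG.62482.1, MSTRG.140725.1, MSTRG.117175.1 and MSTRG.28971.1 had limma adjusted p from 0.101 to 0.245.

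In high Se against CK leaves 2 members passed, against 0.0229% of all tested transcripts. The antisense MSTRG.7326.1 rose, where 0.0183% of all tested transcripts rose. It lies antisense to MS.gene063265 on chromosome 1.1 (26140924 to 26231671, minus strand), with 282 bases of exon in 90748 bases. It had 28.5, 18.6 and 20.99 FPKM in high Se and was listed at 0 in every CK and every low Se library (limma adjusted p = 0.0442 against CK). As it passed the filter through the high Se libraries alone, a difference between groups was given beforehand. About 104.6 to 118.3 estimated reads stood behind each high Se value. The call was lost in 7 of 9 fits without 1 library, all but those without CK 1 or low Se 1. It was also lost with a pseudocount of 0.01, with a higher filter of 2 FPKM and under median-of-ratios rescaling.

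The sense-overlapping MSTRG.136627.1 fell in high Se, where 0.00457% of all tested transcripts fell. It runs from 37028538 to 37629718 on the minus strand of chromosome 7.4, names MS.gene055020 as host gene and has 3 exons of 350 bases in all, so its span is 1718 times its spliced length. It had 0.276, 0.476 and 0 FPKM in high Se and 38.4, 16.3 and 7.24 in CK, a difference of -5.90 ± 0.93 (SE) on the log2(FPKM + 0.1) scale (limma adjusted p = 0.0442). Its low Se values of 5.71, 10.99 and 22.3 FPKM overlap those of CK. This call was lost in all 9 fits without 1 library (limma adjusted p from 0.0725 to 0.277), and with the same pseudocount and filter, without the variance trend and with the 6 libraries alone. The other sense-overlapping transcripts that overlap its interval, MSTRG.136626.1, MSTRG.136644.1 and MSTRG.136647.1, had 0 to 6.54 FPKM in high Se and 0 to 8.15 in CK.

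Outside these 2, the member with the smallest p in high Se was MSTRG.61400.1, a sense-overlapping transcript with 202 bases of exon in 101817 bases of chromosome 3.4 (11829605 to 11931421, minus strand, host gene MS.gene85529). It had 518, 313 and 663 FPKM in high Se and 57.0, 141.2 and 35.9 in CK. All 3 high Se libraries were above all 6 others, and the difference from CK was 2.84 ± 0.54 (SE) on the log2(FPKM + 0.1) scale, with a limma adjusted p of 0.101 that did not pass. The other form of its locus, the intergenic MSTRG.61400.2, had 77.9, 67.3 and 111 FPKM in high Se and 43.7, 139.5 and 41.9 in CK, with overlapping groups.

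MSTRG.153314.2 and MSTRG.114408.1 were other members above 0 in all 9 libraries. The antisense MSTRG.153314.2 (chromosome 8.3, 71890237 to 72044875, minus strand, host gene MS.gene07836) had 25.1, 54.9 and 47.9 FPKM in high Se and 161, 204 and 397 in CK, which do not overlap. The difference was -2.54 ± 0.54 (SE) on the log2(FPKM + 0.1) scale, with a limma adjusted p of 0.156. In low Se it had 109, 40.6 and 76.6 FPKM. MSTRG.114408.1 had 7.62, 16.3 and 14.2 FPKM in high Se, again above its CK values (limma adjusted p = 0.141). As both comparisons use the same CK libraries, its 2 differences are not independent.

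Several members near the top of the high Se list were listed at 0 in CK or close to it. MSTRG.114698.1, MSTRG.7254.1, MSTRG.56839.1, MSTRG.94902.1, MSTRG.152445.1 and MSTRG.113262.1 were listed at 0 in all CK libraries and had 1.46 to 10.1 FPKM in high Se, with limma adjusted p from 0.165 to 0.247. MSTRG.113262.1 is the longest antisense member. It had 5.56, 4.62 and 8.62 FPKM in high Se and 0 in CK. MSTRG.114698.2, another form of the locus of MSTRG.114698.1 on the same strand, had 16.1, 6.48 and 0.676 FPKM in CK. In high Se that form had 7.84, 7.22 and 19.8 FPKM. Of members lower in high Se, MSTRG.141769.2, MSTRG.158186.2 and MSTRG.148329.1 had limma adjusted p of 0.210, 0.257 and 0.375.

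Between high Se and low Se leaves 3 members passed, all antisense and all higher in high Se, against 0.0206% of all tested transcripts in either direction, 0.0183% that rose and 0.00229% that fell. MSTRG.40373.1 lies antisense to MS.gene89082 on chromosome 2.4 (2426888 to 2444540, minus strand), with 254 bases of exon in 17653 bases. It had 19.95, 22.2 and 26.6 FPKM in high Se, and all low Se libraries listed it at 0 (limma adjusted p = 0.0375). In CK it had 0.522, 4.16 and 19.1 FPKM, so that the groups do not overlap and CK 3 lies just below high Se (limma adjusted p = 0.505 for high Se against CK). No other listed transcript overlaps its interval.

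The other 2 that passed between the doses have been described above. MSTRG.112200.1 had 11.4, 5.33 and 6.84 FPKM in high Se, against 0 in low Se (limma adjusted p = 0.0375), and its high Se values overlap those of CK. MSTRG.7326.1, above 0 in high Se alone and past the filter through that group alone, had a limma adjusted p of 0.0442. Between the doses, leaving out 1 library lost MSTRG.112200.1 and MSTRG.7326.1 in 7 of 9 fits each and MSTRG.40373.1 in 8. MSTRG.136627.1, lower in high Se, did not pass against low Se (limma adjusted p = 0.0882), nor did the sense-overlapping MSTRG.157824.1 (limma adjusted p = 0.0918). MSTRG.157824.1, from 69153197 to 69192523 on the plus strand of chromosome 8.4, had 11.6, 20.7 and 16.6 FPKM in high Se and was listed at 0 in low Se. MSTRG.157824.2, a second form with the same start, had 3.77, 6.76 and 3.95 FPKM in high Se and was likewise listed at 0 in low Se. Shared exons tie these 2 forms to the same reads in part.

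When all 3 groups were tested jointly the 4 members named passed, with limma adjusted p of 0.0207 for MSTRG.112200.1, 0.026 for MSTRG.7326.1, 0.0286 for MSTRG.40373.1 and 0.0353 for MSTRG.136627.1. This test was passed by 0.0434% of all tested transcripts. At an unadjusted p below 0.05 it had 183 members (13.0%), against 8.94% of all. In this joint test, leaving out 1 library at a time, in 9 fits, lost MSTRG.136627.1 in 9 of 9, MSTRG.40373.1 in 8, MSTRG.112200.1 in 7 and MSTRG.7326.1 in 5. Without CK 1 and without low Se 1, 5 and 4 members passed, of which 3 and 2 are among the 4 named. None passed without low Se 2 or any 1 of the high Se libraries (limma, with 154 to 172 members at an unadjusted p below 0.05).

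At an unadjusted p below 0.05 stood 178 members in low Se against CK (12.6%), against 8.43% of all tested transcripts. Of these, 99 were higher in low Se (7.03% of tested members, against 4.3% of all) and 79 lower (5.61%, against 4.13% of all). High Se against CK gave 187 members (13.3%, against 9.26% of all), with 141 higher in high Se (10.01%, against 6.11% of all) and 46 lower (3.26%, against 3.15% of all). High Se against low Se gave 142 members (10.1%, against 7.84% of all), with 107 higher in high Se (7.59%, against 5.23% of all) and 35 lower (2.48%, against 2.61% of all). Higher values thus outnumbered lower ones in high Se in the whole table as well.

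By class, counts at an unadjusted p below 0.05 are given with their share of the 492 antisense and 917 sense-overlapping members tested. Low Se against CK had 28 antisense members higher (5.69%) and 42 lower (8.54%). It had 71 sense-overlapping members higher (7.74%) and 37 lower (4.03%), against 4.3% and 4.13% of all tested transcripts. In high Se against CK, 56 antisense members were higher (11.4%) and 23 lower (4.67%). Of the sense-overlapping members, 85 were higher (9.27%) and 23 lower (2.51%), against 6.11% and 3.15% of all. Between high Se and low Se, 46 antisense members were higher in high Se (9.35%) and 6 lower (1.22%). Of the sense-overlapping members, 61 were higher (6.65%) and 29 lower (3.16%), against 5.23% and 2.61% of all. Whether the classes differ was not tested, since their members share loci and libraries.

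The median change was above that of all tested transcripts in both high Se comparisons. In high Se against CK the median log2 change was 0.53 over antisense and 0.59 over sense-overlapping members tested, with 0.26 over all tested transcripts. Rescaling by median of ratios gave 0.44 and 0.50, with 0.15 over all, and quantile normalization gave 0.38 and 0.36, with 0.04 over all. In high Se against low Se the median was 0.54 over antisense and 0.37 over sense-overlapping members, with 0.20 over all. Here median of ratios gave 0.45 and 0.26, with 0.08 over all, and quantile normalization 0.34 and 0.12, with 0.00 over all. In low Se against CK it was -0.04 and 0.21, with 0.00 over all. Median of ratios gave -0.03 and 0.22 there, and quantile normalization -0.04 and 0.21, each with 0.00 over all. The high Se medians thus depended in size on the scaling.

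Presence in whole groups was rare among members. Members above 0 in every high Se library and listed at 0 in the other 6 numbered 6 (0.354%), against 0.529% of all listed transcripts. They included MSTRG.7326.1, MSTRG.114698.1, MSTRG.56839.1, MSTRG.36186.1 and MSTRG.52599.1. In low Se alone there was 1 member, MSTRG.57461.1 (0.0589%, against 0.235% of all), and in CK alone there were 2, MSTRG.115807.1 and MSTRG.144602.1 (0.118%, against 0.227% of all). Members above 0 at both doses and at 0 in CK numbered 6 (0.354%, against 0.294% of all), among them MSTRG.152445.1, MSTRG.93877.1, MSTRG.153673.1, MSTRG.45545.1 and MSTRG.144412.1. These patterns describe single forms and not loci. MSTRG.114698.2, of the same locus as MSTRG.114698.1, was above 0 in all 9 libraries. MSTRG.152445.2, of the same locus as MSTRG.152445.1, had 0.897 FPKM in CK 2.

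Being at 0 in low Se and above 0 in all 6 other libraries was the most frequent of these 6 patterns among members. It held for 8 members (0.471%), 4 antisense and 4 sense-overlapping, against 0.201% of all listed transcripts. MSTRG.112200.1, MSTRG.40373.1, MSTRG.157824.1, MSTRG.157824.2 and MSTRG.114469.1 had the highest means among the 8. The reverse pattern, at 0 in high Se alone, held for 0 members and for 0.0587% of all listed transcripts. A listing of 0 can be a failed assignment of reads as well as a lack of RNA, and with 2 forms from 1 locus the 8 are not all independent.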

How the data were processed

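Per the submitters' processing notes, HISAT2, Bowtie2, StringTie and edgeR were used, with neither roles nor versions. No build or annotation is named (not given in the sources used here), and coordinates are those of the deposited table. Per the labels' protocols, rRNA-depleted RNA was fragmented and copied with dUTP in the second strand. For every transcript the deposited table holds FPKM in each library, and beside it the mean coverage of its bases, which is a raw signal, per the file headers. Deposited scores (CPC, CNCI) give coding potential. The deposited value 0.0001 stands in place of 0 and was set back to 0.

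Estimated reads are coverage times spliced length over 141 bases, since these products peaked at 282 and 141. Coverage over FPKM gave aligned gigabases if StringTie's formula for FPKM applies. The table holds no counts, so no count test or counting interval is given. The low coverage limits the precision of single values.

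All 9 libraries entered 1 limma fit (limma 3.58.1, R 4.3.3) of log2(FPKM + 0.1) with a variance trend, over the 43763 transcripts averaging 0.5 FPKM or more. Calls had a Benjamini-Hochberg adjusted p below 0.05 over all of them. The script was tested on simulated data. Medians, ranks and figures used Python 3.11.15, NumPy 2.4.6, pandas 2.3.3 and matplotlib 3.10.9.

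Named members follow a rule: those called; up to 10 a direction with the smallest p in each pairwise comparison; in each class the 5 with the highest mean, the 5 with the highest lowest value, the 5 longest spans, the 3 longest spliced lengths and the 3 with most exons; those beside the limit of span; up to 5 per presence pattern; and loci with 3 or more members. The members and lists were chosen with earlier results of these data known. None of the members' host gene names was found in the RefSeq gene table of assembly Bolivia_mono, and with no genome of the files' build no sequence is shown.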

Additional observations from a re-analysis of the deposited data

How the results depend on the processing

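The counts of members that passed, 1 in low Se against CK, 2 in high Se against CK, 3 in high Se against low Se and 4 for any difference, depended on the processing. In that order they were 0, 1, 0 and 1 without the variance trend, 7, 4, 6 and 11 without the filter, 1, 0, 0 and 1 when the mean had to reach 2 FPKM, again 1, 0, 0 and 1 for a pseudocount of 0.01, and 2, 3, 5 and 10 with a pseudocount of 1. Median-of-ratios rescaling gave 1, 1, 2 and 4, quantile normalization 1, 2, 4 and 4, and weights for libraries 1, 2, 5 and 5. The 6 libraries compared alone gave 2, 2 and 4, of which 0, 1 and 2 had passed in the main fit. For a pseudocount of 1 the members shared with the main fit numbered 0, 2, 2 and 4. Similar counts thus do not mean that the same members passed. A span of at least 5000 bases left all 4 counts as they were, one of 20000 gave 1, 2, 2 and 3, and one of 50000 gave 0, 2, 1 and 2. With 1 library left out the counts ranged from 0 to 4, 0 to 3, 0 to 4 and 0 to 5. Without CK 2, high Se 1 or high Se 2, and without low Se 2, none passed in any pairwise comparison. At an unadjusted p below 0.05 limma had 68 to 185 members where 0 passed in the alternatives that keep all 9 libraries. Of 960 refits of 60 log2 changes chosen for a small p in these libraries, 64 lost and 16 gained a call. Only the changes called in the main fit, 1, 2 and 3 in the pairwise comparisons, could lose a call. The 64 losses all fell on refits of these and are not a share of the 960. The sign of the 60 changes was largely set by their choice for a small p. The cause of the losses and gains was not tested. With the replicate number as a block the counts were 0, 0, 1 and 2. Libraries of the same number deviated from their group means with r from -0.0302 to 0.0015 over 9 pairs, and 1 of 18 best matches had the same number. Libraries of different numbers had r from -0.0296 to 0.0346. No pairing by number was seen, but values this near 0 cannot exclude one.

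Every member has a strand and at least 2 exons, so those 2 alternatives change nothing. The median span of antisense minus that of sense-overlapping members was -37422 bases, and was -37948.5 with a limit of 5000 bases, -32399 with 20000, -39027.5 in tested members and -34414 with 1 transcript per locus. The median ratio of span to spliced length differed by -77.2, and by -83.7, -75.5, -75.8 and -66.5 in the same order. Depth limits every single value: a median member had at most 10.8 estimated reads in a library.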
